A study of Mus musculus with 6 samples.

Results

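The LY6 surface antigen family was examined in mouse MLL-AF9 leukemia through 9 genes named by symbol: Ly6a, Ly6c1, Ly6c2, Ly6d, Ly6e, Ly6g, Ly6k, Thy1 and Cd59a. All 9 were found by Ensembl ID among the 35932 genes of the deposited count table, with symbols from the GENCODE mouse M21 annotation. RNA sequencing covered 6 libraries of myeloid leukemic blasts from bone marrow, and every library carried the genotype label MLL-AF9+, a fusion gene that drives acute myeloid leukemia. The 3 resistant libraries were labelled chemo_resistant and treated with Cytarabin+Doxorubicin, a nucleoside analog with an anthracycline. The 3 sensitive libraries were labelled chemo_sensitive and treated with vehicle. Resistance and drug exposure went together in all 6 libraries, so they cannot be told apart. The labels give no dose, harvest time, animal strain or age, and nothing says that the replicates were different animals. Each p-value therefore reflects variation among libraries only, and that variation may be technical.

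LY6 proteins are small surface proteins built on a compact, disulfide-bonded fold of 3 finger-like loops, and most are held in the outer leaflet of the membrane by a glycosylphosphatidylinositol (GPI) anchor. In mouse blood formation they serve as stage markers: Ly6c on monocytes and their precursors, Ly6g on maturing neutrophils, Ly6a (stem cell antigen) on stem cells and activated lymphocytes, and Ly6d on early B-lineage progenitors. Cd59a carries the same fold and blocks the membrane attack complex of complement. Thy1, an antigen of T cells and neurons, is GPI-anchored but has an immunoglobulin fold.

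Library totals ranged from 22206341 to 31856009 counts, and a floor of 3 counts stood for 0.0942 to 0.135 CPM, the counts scaled to the size of the library, covering counting error only. The 12 markers of myeloid blasts were all tested and summed to 5170 to 6103 CPM in resistant and 5909 to 6504 CPM in sensitive libraries, with 3 higher, 4 lower and 5 not past the test. Globin and other erythroid markers summed to 1.10 to 2.87 CPM in resistant and 44.3 to 76.9 CPM in sensitive libraries, and neutrophil markers to 37.1 to 62.1 CPM in resistant and 153.7 to 178.3 CPM in sensitive libraries. In bulk RNA, fewer cells of a type and less RNA per cell cannot be told apart. The part of such cells in the results on the LY6 genes was not tested.

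In resistant blasts 6 of the 7 tested LY6 members were lower and 0 were higher. The count of higher members was 0 also at an unadjusted p under 0.05 in edgeR, and 0 by the adjusted p of DESeq2 and of limma-voom. Ly6g, Cd59a, Ly6c1, Ly6c2, Ly6a and Ly6e fell, and Ly6k did not pass the test (edgeR quasi-likelihood test, Benjamini-Hochberg adjusted p at most 0.05). Ly6d and Thy1 had too few counts to be tested. Over all 13414 genes tested, 20.8% were called lower and 18.5% higher. The members were chosen with earlier results of these data known, so setting them beside all genes is a description and not a test. The median log2 fold change, resistant over sensitive, was -1.37 over the 7 tested members and -0.01 over all tested genes. Ly6g and Cd59a reached the low-count filter through the sensitive libraries alone, so they could enter the test only if they were high there. The values of the other 5 tested members lay above the filter in all 6 libraries. At least 2-fold falls were seen in 5 members, Ly6g and Cd59a among them, a size reached by 4.74% of tested genes. The exception among the 6 lower members was Ly6e. The 3 resistant values lay below the 3 sensitive values in 6 tested members, Ly6g and Cd59a among them, against 27.2% of all tested genes. With a filter of at least 1 CPM in 3 libraries, which leaves Ly6g and Cd59a untested, 4 members were lower. With the near-identical Ly6c1 and Ly6c2 summed, 5 were lower.

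**Figure D1:**
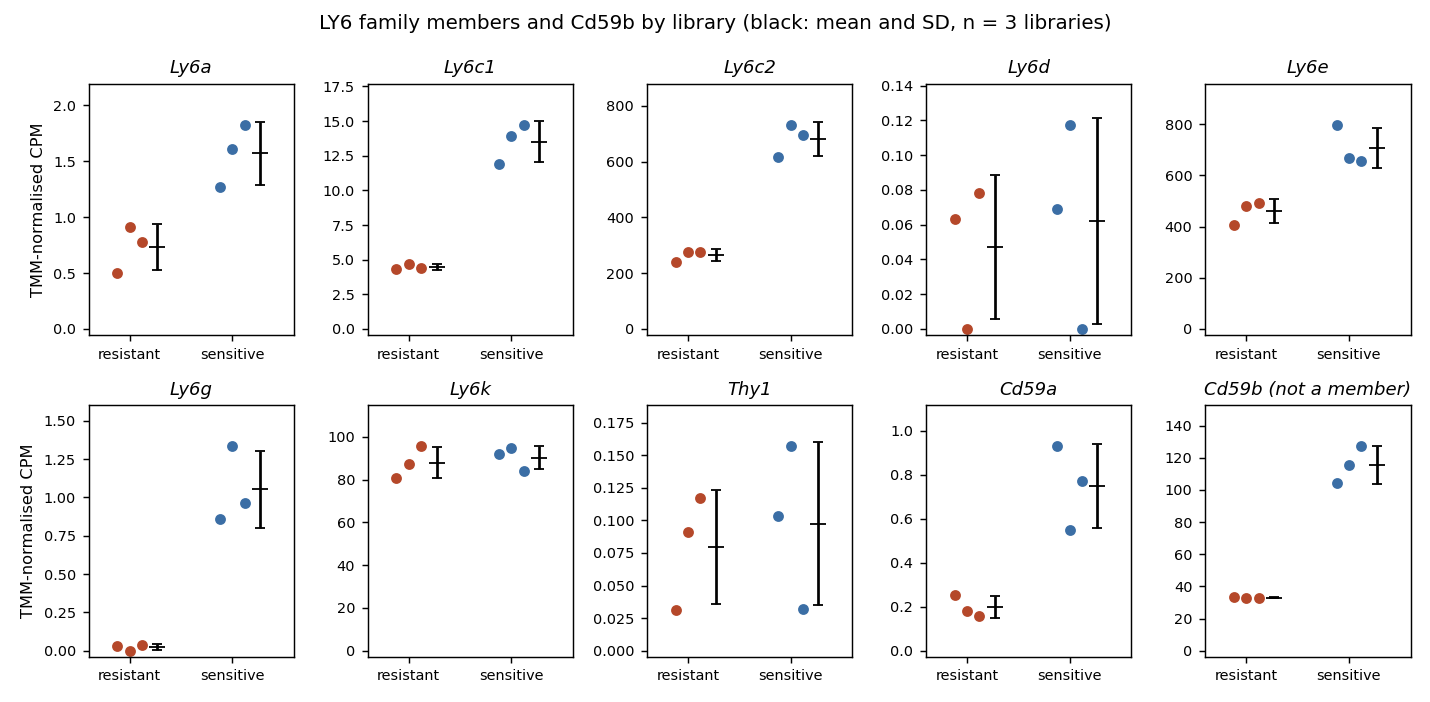
Each panel plots TMM-normalised CPM of 1 gene, with 1 point per library, resistant on the left and sensitive on the right, and black bars for the mean and SD of 3 libraries; the vertical axes differ between panels. The points of the groups lie apart for Ly6a, Ly6c1, Ly6c2, Ly6e, Ly6g, Cd59a and the non-member Cd59b, and overlap for Ly6d, Ly6k and Thy1.

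**Figure D2:**
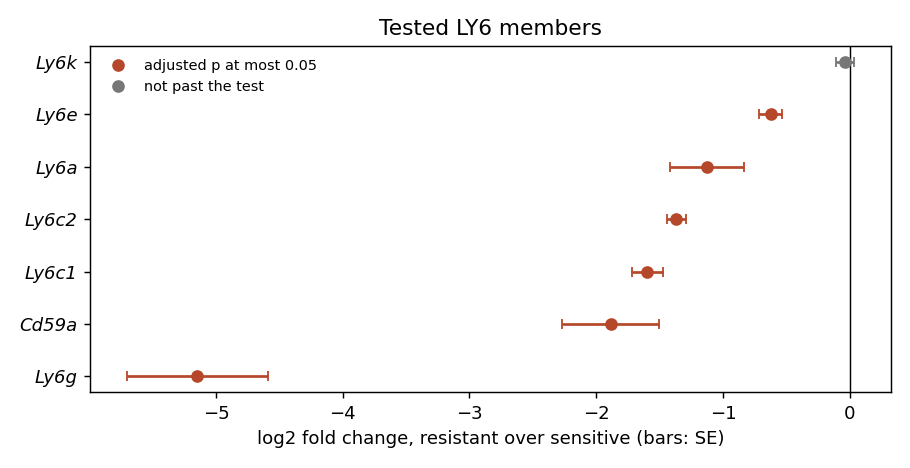
Points give the log2 fold change, resistant over sensitive, of the 7 tested members, with bars for the SE. Ly6g lies farthest from 0 at -5.15 and Ly6k lies nearest to 0 at -0.04; Ly6g and Cd59a have the widest bars.

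The monocyte antigens Ly6c2 and Ly6c1 fell together. Ly6c2, the Ly6C gene that marks inflammatory monocytes, had 239.5, 275.5 and 277.2 CPM in the resistant libraries, against 614.9, 732.7 and 694.8 CPM in the sensitive libraries. The highest resistant library was thus far below the lowest sensitive one. Ly6c2 fell 2.58-fold, a log2 change of -1.37 ± 0.08 (SE; edgeR quasi-likelihood, adjusted p = 7.28e-07). Ly6c1, which encodes a nearly identical antigen also carried by endothelial cells and lymphocytes, had 4.35, 4.69 and 4.37 CPM in the resistant libraries, against 11.9, 13.9 and 14.8 CPM in the sensitive libraries. It fell 3.03-fold, and its log2 fold change was -1.60 ± 0.12 (edgeR adjusted p = 5.62e-06). Beside these, 8 of 9 monocyte markers were lower and 0 higher, against 20.8% lower and 18.5% higher over all tested genes. Of the lower markers, Fn1 and Klf4 reached the low-count filter through the sensitive libraries alone. Irf8, a factor of monocyte development, averaged 38.5 CPM in resistant and 82.8 CPM in sensitive libraries. The monocyte markers summed to 307.7 to 359.0 CPM in resistant and 382.2 to 500.9 CPM in sensitive libraries. Endothelial and stromal markers, 1 of whose 8 genes was at 0 in all libraries (Emcn), summed to at most 1.001 CPM in resistant and at most 1.33 CPM in sensitive libraries.

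Ly6c1 and Ly6c2 share part of their sequence. Their coding sequences, both on chromosome 15, are shown up to base 300 because reads from identical stretches fit both genes. They are read from the GENCODE M21 transcripts, 5′ to 3′, with the bases that differ between the pair in capitals.
Ly6c1: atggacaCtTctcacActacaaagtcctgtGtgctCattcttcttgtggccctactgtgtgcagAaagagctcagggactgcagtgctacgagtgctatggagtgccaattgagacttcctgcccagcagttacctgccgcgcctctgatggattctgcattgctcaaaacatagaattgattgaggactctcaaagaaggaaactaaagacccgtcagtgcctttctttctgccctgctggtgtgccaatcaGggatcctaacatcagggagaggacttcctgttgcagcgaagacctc
Ly6c2: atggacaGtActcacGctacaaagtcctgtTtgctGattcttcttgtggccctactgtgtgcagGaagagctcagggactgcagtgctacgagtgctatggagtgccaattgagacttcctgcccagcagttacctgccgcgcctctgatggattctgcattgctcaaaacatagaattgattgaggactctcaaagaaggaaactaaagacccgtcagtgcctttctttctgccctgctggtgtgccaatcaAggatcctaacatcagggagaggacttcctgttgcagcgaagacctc
The pair differs at 9 of 393 coding bases, 7 of them in the stretches shown and 6 within the first 65 bases, and is identical over the 188 bases from position 66 to 253, counted from the A of the start codon. Of all 50-base stretches in the protein-coding transcripts of Ly6c2, 31.2% also occur in another gene, 30.8% in Ly6c1. For Ly6c1 the share is 32.8%, spread over Ly6c2 (21.5%), Ly6a and Ly6i, so most stretches of both genes occur in no other gene. With 100-base stretches the shares are 14.9% for Ly6c2 and 10.1% for Ly6c1. Neither the read length nor the treatment of shared reads is stated in the labels, and the values could be reads as counted or RSEM estimates after rounding. The shares of the pair and their intervals treat them as reads counted. Ly6c1 took 1.78%, 1.67% and 1.55% of the summed counts of the pair in resistant libraries 1 to 3, with 95% Wilson intervals from 1.29% to 2.10% over the group. In sensitive libraries 1 to 3 it took 1.89%, 1.86% and 2.08%, with intervals from 1.68% to 2.28%. The shares did not overlap between the groups, while the intervals did, and these cover counting error only. With the counts of the pair summed into 1 row, the log2 fold change was -1.37 ± 0.08 (edgeR adjusted p = 6.81e-07).

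Ly6g, the antigen of maturing neutrophils, was at or under 1 count in each resistant library. It had 1, 0 and 1 counts in the resistant libraries, against 25, 34 and 30 counts in the sensitive libraries. In CPM these are 0.0315, 0 and 0.0390 in the resistant libraries and 0.860, 1.33 and 0.962 in the sensitive libraries, so every resistant value lay under its floor of 3 counts. The ratio of the summed counts, 2 in resistant against 89 in sensitive libraries, scaled by library totals, was 0.0237, with an exact 95% interval from 0.00283 to 0.0883 that covers counting error only. The log2 fold change was -5.15 ± 0.56 (edgeR adjusted p = 5.96e-05); at so few counts its size depends on the prior count of the fit. Only 0.448% of the 50-base stretches of Ly6g occur in another gene. Of the 10 tested neutrophil markers 8 were lower and 0 higher, against 20.8% lower and 18.5% higher over all tested genes. Of the lower markers, Mmp8 reached the low-count filter through the sensitive libraries alone. No neutrophil or monocyte marker was higher at an unadjusted p under 0.05 in edgeR. The calprotectin subunit gene S100a9 averaged 9.45 CPM in resistant and 43.3 CPM in sensitive libraries, and the granule protein gene Ngp 11.9 CPM in resistant and 44.2 CPM in sensitive libraries. The chemokine receptor gene Cxcr2 did not pass, at 5.89 CPM in resistant and 6.73 CPM in sensitive libraries (edgeR adjusted p = 0.305).

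Ly6a, the stem cell antigen gene, was low in both groups and lower in resistant blasts. It had 0.504, 0.910 and 0.780 CPM in the resistant libraries, from 16, 20 and 20 counts, against 1.27, 1.61 and 1.83 CPM in the sensitive libraries, from 37, 41 and 57 counts. The groups did not overlap, and the log2 fold change was -1.12 ± 0.29 (edgeR adjusted p = 0.0119). The call was lost without sensitive library 3, where the log2 fold change was -0.99 and the edgeR adjusted p = 0.0536. Of the 50-base stretches of Ly6a 19.0% occur in another gene, 15.03% in Ly6c1. Ly6a is used with Kit and a lack of lineage markers to gate stem cells. Of the 14 genes listed for that gate 9 were tested, with a median of -0.19. Of these 1 was higher, 4 lower and 4 not past the test, against 18.5% higher and 20.8% lower over all tested genes. Cd48, a GPI-anchored ligand of the SLAM family, averaged 1.68 CPM in resistant and 18.3 CPM in sensitive libraries. The cytokine receptor genes Flt3 (-0.86 ± 0.13) and Kit (-0.31 ± 0.06) were lower on the log2 scale, and the surface sialomucin gene Cd34 was higher (0.30 ± 0.07).

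Ly6e, an interferon- and retinoic acid-inducible antigen of immature thymocytes and many other cells, had the highest mean CPM of the members over the 6 libraries and the smallest fold change of the 6 lower members. Ly6c2 was above it in CPM in sensitive libraries 2 and 3. It had 405.8, 482.3 and 491.9 CPM in the resistant libraries, against 799.2, 669.4 and 656.7 CPM in the sensitive libraries. Resistant library 1 was the lowest and sensitive library 1 the highest of the 6, and the groups did not overlap. Ly6e fell 1.54-fold, and its log2 fold change was -0.62 ± 0.09 (edgeR adjusted p = 0.000405). None of its 50-base stretches occurs in another gene. Interferon induces both Ly6e and Ly6a. Of 35 tested genes of interferon receptors and response 2 were higher, 12 lower and 21 not past the test, with a median log2 fold change of -0.14. Over all tested genes 18.5% were higher and 20.8% lower. Among the lower genes of the list were Irf8 (-1.10 ± 0.11), the GTPase gene Gbp3 (-1.24 ± 0.15) and the type I receptor subunit gene Ifnar2 (-0.47 ± 0.06). The 2 higher ones were the interferon-induced genes Oas2 (0.68 ± 0.10) and Ifih1 (0.29 ± 0.07), named after their values were seen.

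Over the 6 libraries, the 5 genes whose centred log2 CPM was closest to that of Ly6e among 12993 named genes were Cnp, Tmem229b, Gramd4, Ifi47 and Tiam1, with root mean square differences of 0.03 to 0.07 log2 units. Cnp encodes a cyclic nucleotide phosphodiesterase of myelin, Ifi47 an interferon-inducible GTPase and Tiam1 an activator of the GTPase RAC1. For Ly6g the closest were Rnf165, Rec114, Slc17a3, Alas2 and Large2, with differences of 0.20 to 0.24. All 5 averaged under 0.4 CPM in resistant libraries, and Alas2 is the heme synthesis enzyme gene of red cells, at 0.0517 CPM in resistant and 1.31 CPM in sensitive libraries. The measure takes in the difference between the groups along with the spread within them.

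Ly6k, known from mouse testis for its role in sperm function, was well expressed in both groups and did not pass the test. It had 81.0, 87.5 and 95.6 CPM in the resistant libraries, against 91.9, 94.9 and 84.3 CPM in the sensitive libraries. The groups overlapped, and its log2 fold change was -0.04 ± 0.07 (edgeR adjusted p = 0.714). The sign turned to 0.02 without resistant library 1. Tex101, the testis gene whose protein partners Ly6k, was near the filter at 0.399 ± 0.138 CPM in resistant and 0.387 ± 0.141 CPM in sensitive libraries (SD, n = 3). Gm17189, an annotated gene on the other strand, shares 32.7% of the 50-base stretches of Ly6k, and whether the counting used strand is not given. It averaged 1.05 CPM in resistant and 1.19 CPM in sensitive libraries and did not pass the test either (log2 fold change -0.17 ± 0.30, edgeR adjusted p = 0.68).

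The lymphoid antigens Thy1 and Ly6d were at the floor of detection. Thy1 had 1, 2 and 3 counts in the resistant libraries, against 3, 4 and 1 counts in the sensitive libraries. Ly6d had 2, 0 and 2 counts in the resistant libraries, against 2, 3 and 0 counts in the sensitive libraries. Both overlapped between the groups, and without a low-count filter neither passed (edgeR adjusted p = 0.871 for Thy1 and 0.923 for Ly6d). A difference was not detectable at this depth. The 13 T cell markers summed to 7.37 to 9.06 CPM in resistant and 9.08 to 12.001 CPM in sensitive libraries. Of the 5 that were tested, 0 were higher, 1 lower and 4 not past the test in edgeR, with 0 higher at an unadjusted p under 0.05. The lower one was the co-receptor gene Cd8a, which averaged 1.89 CPM in resistant and 2.99 CPM in sensitive libraries (edgeR adjusted p = 0.0406). The T cell receptor signalling chain gene Cd3e, not tested, averaged 0.0152 CPM in resistant and 0.0115 CPM in sensitive libraries. The 8 B cell markers summed to 38.5 to 41.4 CPM in resistant and 39.2 to 42.5 CPM in sensitive libraries. Most of this was Cd79b, which averaged 38.3 CPM in resistant and 38.9 CPM in sensitive libraries. Of the 3 B cell markers tested, 0 were higher, 1 lower (Cd22, edgeR adjusted p = 0.0388) and 2 not past the test.

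Cd59a, the inhibitor of the membrane attack complex, was scarce and lower in resistant blasts, and its paralog Cd59b carried most CD59 mRNA. Cd59a had 8, 4 and 4 counts in the resistant libraries, against 27, 14 and 24 counts in the sensitive libraries. In CPM it had 0.252, 0.182 and 0.156 in the resistant libraries, against 0.929, 0.549 and 0.770 in the sensitive libraries, and its log2 fold change was -1.89 ± 0.39 (edgeR adjusted p = 0.00336). Cd59b, which is outside the 9 genes, had 33.37, 32.995 and 32.65 CPM in the resistant libraries, against 104.1, 115.2 and 127.1 CPM in the sensitive libraries. It fell 3.50-fold, and its log2 fold change was -1.81 ± 0.08 (edgeR adjusted p = 1.32e-07). Cd59a took 0.476% to 0.7498% of the pair's counts in resistant and 0.474% to 0.884% in sensitive libraries. The coding sequences of the pair are 74.8% identical, and 3.87% of the 50-base stretches of Cd59a occur in Cd59b. For Cd59b 20.1% of such stretches occur in another gene, 8.74% in Efr3a. Of 11 tested complement regulators and receptors, Cd59b included, 2 were higher, 5 lower and 4 not past the test, with a median of -0.42. Over all tested genes 18.5% were higher and 20.8% lower. Itgax, an integrin chain of complement receptors, fell by 3.66 ± 0.19 on the log2 scale, and the shared beta chain gene Itgb2 by 0.51 ± 0.06. The 2 higher ones were the complement factor gene Cfb (1.18 ± 0.21) and the complement regulator gene Cr1l (0.26 ± 0.06), named after their values were seen.

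Levels were set against each other per length, as TMM-normalised CPM per kilobase of the longest protein-coding transcript in GENCODE M21. In resistant libraries Ly6c2 was highest at 321.3 ± 25.9, followed by Ly6e at 201.7 ± 20.7 and Ly6k at 111.3 ± 9.27 CPM per kilobase (SD, n = 3 libraries). Ly6c1 followed at 5.29 ± 0.225 and Ly6a at 0.766 ± 0.217, and none of these neighbours in the order overlapped. Cd59a, Ly6d, Thy1 and Ly6g came last, each at 0.109 or less, and each overlapped with its neighbour. In sensitive libraries the order was Ly6c2 at 828.2 ± 73.2, Ly6e at 310.6 ± 34.6, Ly6k at 114.2 ± 6.91 and Ly6c1 at 16.0 ± 1.76 CPM per kilobase. Ly6a at 1.64 ± 0.293 overlapped with Ly6g at 1.12 ± 0.265, and Cd59a followed at 0.415 ± 0.106. Ly6d and Thy1 overlapped with each other, both under 0.1. Ly6c2 thus led in both groups, ahead of 98.5% of 11983 tested coding genes in resistant and 99.4% in sensitive libraries. Ly6g had the last place in resistant libraries and lay above Cd59a in sensitive ones.

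**Figure D3:**
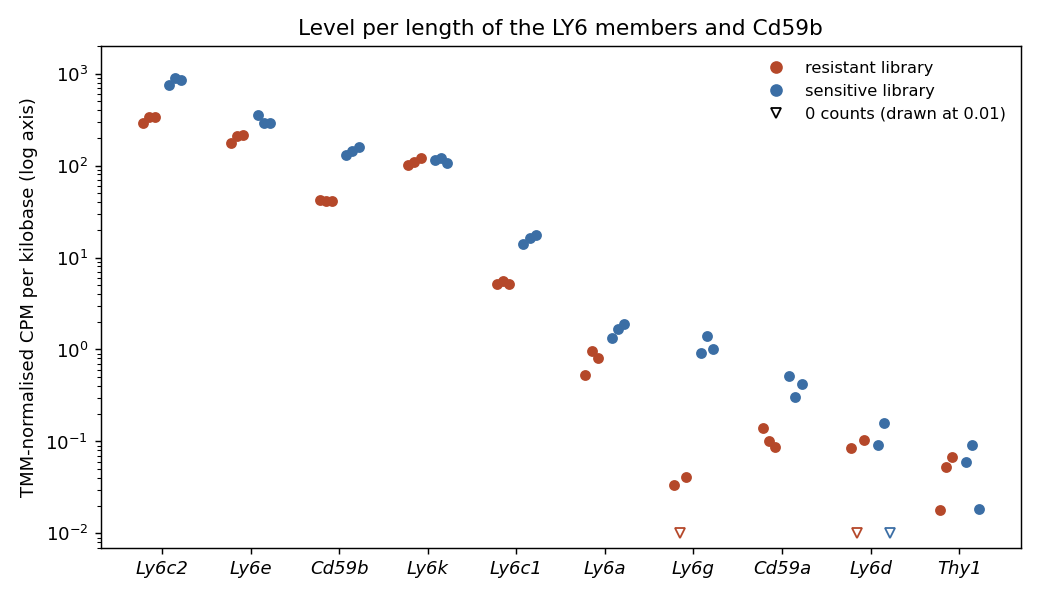
TMM-normalised CPM per kilobase on a log axis, with 1 point per library and genes ordered by their mean in sensitive libraries; open triangles at 0.01 stand for libraries with 0 counts. Ly6c2, Ly6e and Ly6k lie above 100 in every library, while Ly6d and Thy1 lie under 0.2 in every library.

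Of the 9 genes 7 lie on chromosome 15 in 1 block, in the order Ly6d, Ly6k, Ly6e, Ly6a, Ly6c1, Ly6c2 and Ly6g, while Thy1 lies on chromosome 9 and Cd59a on chromosome 2. The order comes from GENCODE M21, on a later build than the one the authors used. Among the 38 other annotated genes from 10 before to 10 after the block, 19 were in the count table and 7 were tested. Of these, 2 were lower and 5 did not pass. The lower ones were the LY6 genes Ly6i and Ly6f. Some 50-base stretches of Ly6a, Ly6c1 and Ly6g also occur in Ly6i, and the treatment of shared reads is not stated. Ly6i averaged 1.29 ± 0.0781 CPM in resistant and 2.70 ± 0.203 CPM in sensitive libraries (log2 fold change -1.06 ± 0.20, edgeR adjusted p = 0.00217). Ly6f averaged 1.15 ± 0.174 CPM in resistant and 2.57 ± 0.479 CPM in sensitive libraries (-1.15 ± 0.24, edgeR adjusted p = 0.00339). Read along the chromosome, 0 of the 6 tested genes up to Ly6k were lower, and all 7 from Ly6e on were, against 20.8% of all tested genes. Ly6g, 1 of these 7, reached the low-count filter through the sensitive libraries alone. At an unadjusted p under 0.05 in edgeR, Them6 would have been counted as lower among the first 6. This division was drawn after the values were seen and has no test. The 5 tested non-members up to Ly6k were Arc, Jrk, Them6, Lynx1 and Gm17189. Arc, a gene of neuronal activity, had a log2 fold change of 0.04 ± 0.19. Jrk (-0.27 ± 0.19), Them6 (-0.39 ± 0.15) and the nicotinic receptor modulator gene Lynx1 (-0.16 ± 0.30) had adjusted p-values of 0.29, 0.0612 and 0.703 in edgeR.

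**Figure D4:**
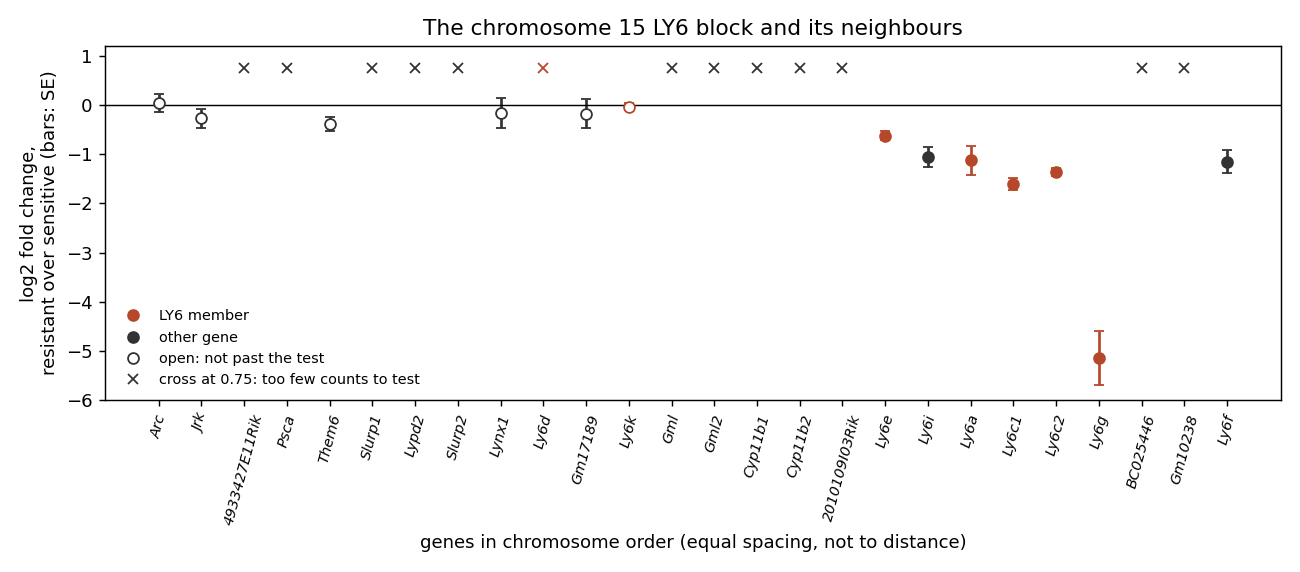
Log2 fold changes with SE for the genes of the chromosome 15 LY6 block and its neighbours that the count table holds, in chromosome order at equal spacing, with members in red, open points not past the test and crosses for genes too low to test. The points from Ly6e to Ly6f lie below 0, with Ly6g lowest at -5.15; those from Arc to Ly6k are open.

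Promoter sequence was at hand for 4 members, Ly6c1, Ly6c2, Ly6g and Cd59a, in RefSeq windows on GRCm38.p6. All of these were lower, and the window of Cd59a is not shown. The 250 bases before the most upstream listed start of the Ly6c and Ly6g genes are shown, since these genes are copies of one another. The sequences run 5′ to 3′ on the strand of the gene, with motif matches in capitals. They are chr15:75048838-75049087 on the minus strand for Ly6c1, chr15:75111972-75112221 on the minus strand for Ly6c2 and chr15:75155011-75155260 on the plus strand for Ly6g.
Ly6c1 promoter: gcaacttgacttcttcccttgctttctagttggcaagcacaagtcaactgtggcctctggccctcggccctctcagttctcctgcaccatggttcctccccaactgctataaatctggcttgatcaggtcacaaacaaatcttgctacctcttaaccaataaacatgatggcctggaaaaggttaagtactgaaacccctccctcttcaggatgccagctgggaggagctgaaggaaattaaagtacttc
Ly6c2 promoter: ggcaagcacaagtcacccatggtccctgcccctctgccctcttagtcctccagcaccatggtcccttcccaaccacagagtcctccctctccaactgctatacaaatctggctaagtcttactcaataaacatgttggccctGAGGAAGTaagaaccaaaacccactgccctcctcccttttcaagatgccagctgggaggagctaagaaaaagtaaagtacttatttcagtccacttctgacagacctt
Ly6g promoter: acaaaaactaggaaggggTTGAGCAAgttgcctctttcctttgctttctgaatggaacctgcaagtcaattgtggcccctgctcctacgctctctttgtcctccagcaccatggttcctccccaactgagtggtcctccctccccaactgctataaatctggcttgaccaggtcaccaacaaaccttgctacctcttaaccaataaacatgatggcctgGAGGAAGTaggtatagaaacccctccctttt
The motifs searched on both strands in the 250 bases before each start were GAGGAAGT, an ETS-type site of the kind PU.1 binds, TTGCNNAA, of the C/EBP kind, TTCNNNGAA, of the STAT kind, and the interferon response motif, a pair of GAAA runs set apart by 2 bases of any kind. GAGGAAGT was found for 3 of the 4 members, Ly6c1 (before its second listed start only), Ly6c2 and Ly6g, against 2.79% of 27025 genes. TTGCNNAA was found for Ly6g alone of the 4, against 10.8% of genes, and the interferon response motif for Cd59a alone, against 3.46%. TTCNNNGAA matched 0 of the 4, against 8.13% of genes. None of the matches in the windows shown overlapped another. The Ly6c and Ly6g genes are copies of one another, with coding identities of 79.2% to 97.7%, so their windows are not independent. Spi1, the gene of PU.1, averaged 276.9 CPM in resistant and 305.9 CPM in sensitive libraries and did not pass the test (edgeR adjusted p = 0.124). Cebpa, the C/EBP alpha gene, averaged 25.3 CPM in resistant and 95.8 CPM in sensitive libraries (edgeR adjusted p = 3.15e-07). A motif match is a description only, and a link between Spi1 or Cebpa and the LY6 values was not tested.

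Other genes of the same protein superfamily were few in these blasts. Of 39 other LY6 and uPAR domain genes listed, 34 were in the table, 15 of them at 0 in every library, and 9 were tested. Of these 0 were higher in edgeR, 5 lower and 4 not past the test, against 18.5% higher and 20.8% lower over all tested genes. The median log2 fold change of the 9 was -0.59, and 0 were higher at an unadjusted p under 0.05 in edgeR. The lower ones were Cd59b, Ly6i and Ly6f, given above, with Cd177 and Plaur. Cd177, a neutrophil antigen, had 0.977, 1.32 and 0.936 CPM in the resistant libraries, against 4.71, 6.75 and 7.06 CPM in the sensitive libraries (log2 fold change -2.53 ± 0.22, edgeR adjusted p = 1.58e-05). Plaur, the urokinase receptor gene, which was named after its values were seen, had a log2 fold change of -0.38 ± 0.09.

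Most genes that make GPI anchors did not pass the test, and the same held for all tested genes, of which 39.2% were called in either direction. Of 25 tested genes of anchor synthesis 0 were higher, 6 lower and 19 not past the test, with a median of -0.09, and 1 was higher at an unadjusted p under 0.05 in edgeR. Pigv, a mannosyltransferase gene, averaged 13.8 ± 2.93 CPM in resistant and 26.6 ± 1.73 CPM in sensitive libraries. Piga (-0.50 ± 0.09) and Pigh (-0.55 ± 0.11), subunit genes of the enzyme that makes the first intermediate, were lower too on the log2 scale. Of 11 tested genes of anchor remodelling, transport and release 2 were higher, 2 lower and 7 not past the test, with a median of -0.06. Tmem8 (-0.76 ± 0.09) and the remodelling phosphoesterase gene Mppe1 (-0.44 ± 0.08) were lower, and Pgap2, a gene of lipid remodelling, was higher (0.24 ± 0.06).

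Of 13 tested genes of other GPI-anchored blood cell proteins 3 were higher, 4 lower and 6 not past the test, with a median of 0.23, against 18.5% higher and 20.8% lower over all tested genes. Cd48 fell by 3.43 ± 0.19 and the lymphocyte antigen gene Cd52 by 0.75 ± 0.07 on the log2 scale, while Gpc1, a heparan sulfate proteoglycan gene, rose by 0.60 ± 0.07. Of 12 tested Src kinases and raft adaptors, which relay signals from GPI-anchored proteins, 1 was higher, 4 lower and 7 not past the test, with a median of -0.15. The adaptor gene Lat2 (-1.17 ± 0.09), the myeloid kinase gene Fgr (-1.72 ± 0.23) and Csk, the inhibitory kinase gene (-0.33 ± 0.06), were lower.

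**Figure D5:**
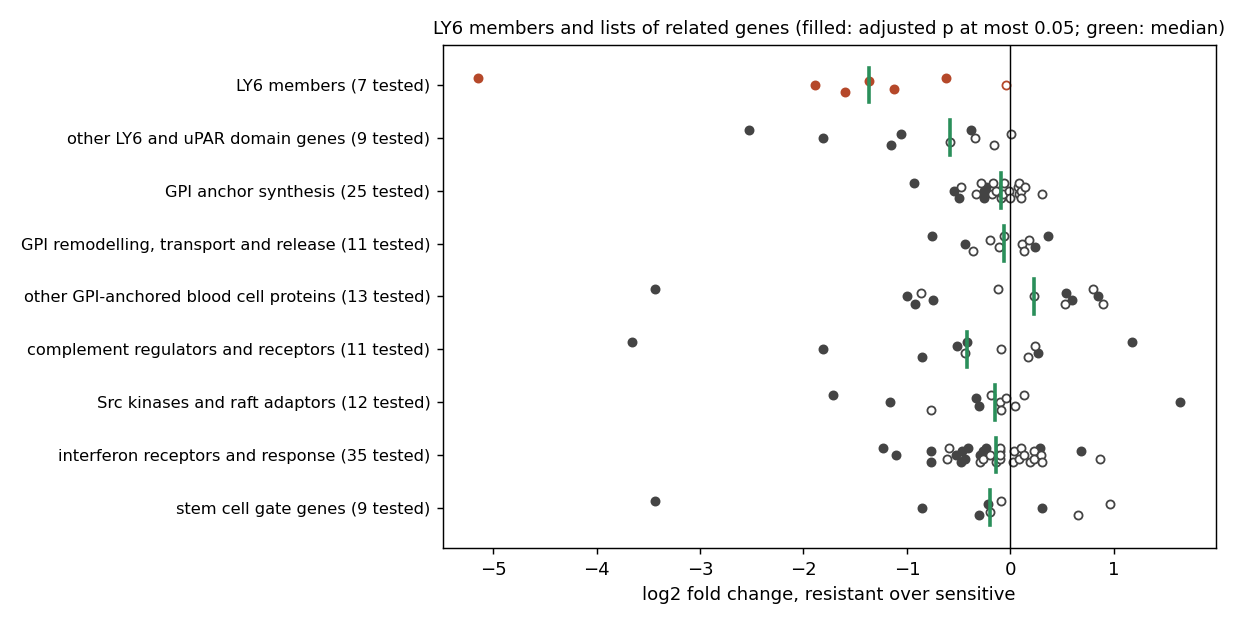
Each point is the log2 fold change of 1 tested gene, for the 7 tested LY6 members in red and 8 lists of related genes in grey, with filled points past the test and a green line at the median. The LY6 median lies at -1.37 and the medians of the other lists between -0.59 and 0.23. Of the 7 LY6 members, Ly6g and Cd59a reached the low-count filter through the sensitive libraries alone, and both enter the LY6 median. The members and lists were chosen with earlier results of these data known.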

How the data were processed

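The authors deposited whole-number counts per Ensembl gene; the submitters' processing notes name TopHat2, RSEM and the build mm9, with no roles or versions, so it is not known if the values are reads as counted or RSEM estimates after rounding. The annotation, the strand setting and the treatment of shared reads are not stated. All 6 columns matched 1 sample each by title, and 0 were left unused. Symbols, lengths and sequences came from GENCODE M21 and RefSeq on GRCm38, a later build; 31636 IDs matched.

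The filter filterByExpr kept 13414 genes, and TMM factors lay between 0.978 and 1.02. The test was the quasi-likelihood F test of edgeR 4.0.16 (R 4.3.3) on group alone, adjusted by the Benjamini-Hochberg method over all genes, with a threshold of 0.05. The SE was the log2 fold change over the root of F. CPM are TMM-normalised. The step was tested on simulated data. Coding sequences, in place of proteins, were compared by global alignment, and stretches of 50 and 100 bases by exact match on either strand.

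Within a group, libraries differed from each other by more than counting noise (chi-square over its degrees of freedom at least 3.91), so none was counted as a copy. Alternatives were other scalings, DESeq2 1.42.0, limma-voom (limma 3.58.1), other filters, the replicate block, libraries left out in turn and Ly6c1 with Ly6c2 summed.

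The members and lists were chosen with earlier results of these data known. Named genes were the 9 members; from each list, up to 3 called genes ranked by adjusted p; tested neighbours of the chromosome 15 block; and the 5 genes most like the member with the highest mean CPM over the 6 libraries (Ly6e) and like the member with the largest change. Marker genes are named as a check of cell types.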

Additional observations from a re-analysis of the deposited data

How the results depend on the processing

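The 6 LY6 falls kept their direction under every alternative that gave a value. The count of lower members was 6 in the main analysis, 5 to 6 with 1 library left out, 5 with Ly6c1 and Ly6c2 summed, and 4 with a filter of at least 1 CPM in 3 libraries, which leaves Ly6g and Cd59a untested. Ly6a lost its call without sensitive library 3 (-0.99, edgeR adjusted p = 0.0536). Ly6k, at -0.04, ranged from -0.0946 to 0.0214 with 1 library left out, and its sign turned without resistant library 1. Leaving out 1 library moved the number of all genes called higher between 1641 (without sensitive library 2) and 2521; the cause was not tested. With the replicate block, 6 members were lower and 0 higher, as without it; same-numbered libraries deviated with correlations of 0.0368, -0.00563 and -0.0863, so the numbers were not taken as pairs. Ly6g, Cd59a, Ly6d and Thy1 are limited by depth.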

Other observations

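Markers of other cells that carry LY6 antigens are given here as summed TMM-normalised CPM. Macrophage markers summed to 344.6 to 435.4 in resistant and 275.7 to 311.7 in sensitive libraries, and NK cell markers to 69.7 to 96.1 in resistant and 47.7 to 64.4 in sensitive libraries. Plasma cell markers summed to 23.9 to 27.1 in resistant and 131.5 to 158.9 in sensitive libraries. Plasmacytoid dendritic cell markers summed to 265.8 to 282.4 in resistant and 299.7 to 306.8 in sensitive libraries. Single genes made up most of these sums: Nkg7, a granule membrane protein gene, averaged 86.7 CPM in resistant and 55.4 CPM in sensitive libraries, and Ighm, the immunoglobulin heavy chain mu gene, 24.6 CPM in resistant and 140.4 CPM in sensitive libraries. Of 6 tested macrophage markers 1 was higher, 1 lower and 4 not past the test. The higher one, the adhesion molecule gene Vcam1, averaged 239.8 CPM in resistant and 160.9 CPM in sensitive libraries. The lower one, Axl, averaged 0.484 CPM in resistant and 1.01 CPM in sensitive libraries. The NK cell gene Prf1 averaged 0.122 CPM in resistant and 0.675 CPM in sensitive libraries, opposite in direction to Nkg7. The part of such cells in the LY6 values was not tested.

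The genes of the related lists that were higher in resistant blasts and are not given above were named after their values were seen. On the log2 scale, resistant over sensitive, they were the kinase gene Src (1.64 ± 0.42, SE), Gpld1 (0.37 ± 0.10), Prnp (0.54 ± 0.10) and Cd14 (0.84 ± 0.23). Gpld1 encodes a phospholipase that releases GPI-anchored proteins. Prnp, the prion protein gene, and Cd14, a lipopolysaccharide co-receptor gene, encode GPI-anchored proteins.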
